A study of Mus musculus with 4 samples.

Results

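The genes described here are 40 genes of the immediate early and heat shock responses, 30 of the first and 10 of the second, among 55401 genes in the tables. They were taken by symbol from a list of genes known to respond to tissue dissociation and cell stress. The rule uses symbols alone, but the list was drawn up with earlier results of these data known. Their RNA was measured in CD45+ cells, that is, leukocytes, sorted from the dura mater of mice given a viral vector. All mice were wild-type C57BL/6J males that received 2 μl of an AAV9 vector into the cisterna magna at 4 wk of age. The AAV-mVEGF-C vector carried full-length mouse VEGF-C, a lymphatic growth factor. The AAV-CTRL vector carried a secreted piece of VEGFR-3 that lacks the part binding VEGF-C, so the controls too had received a vector and its product. Meninges were pooled, 10 to 12 per condition, and the experiment was done 2 times, which gave each group 2 libraries that the labels number as experiments 1 and 2. The dura of both groups was digested with enzymes for 20 min at 37 °C before sorting. No undigested sample was analysed here, so a level reached in the animal and one reached during digestion and sorting cannot be told apart.

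Immediate early genes are transcribed within minutes of a stimulus from factors already present in the cell, and most of their RNAs decay quickly. They encode transcription factors such as FOS, JUN, EGR1 and the NR4A receptors, followed by inhibitors such as DUSP1, ZFP36 and TNFAIP3 that shut the signal off. Heat shock genes are switched on by the factor HSF1 when proteins misfold, and encode chaperones that refold or hold damaged proteins. Both programs are known to be induced in leukocytes when tissue is warmed and digested to free the cells.

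The libraries held 32520709 to 46409700 reads assigned to genes. Genes with a read were fewest in AAV-CTRL 1, the most deeply sequenced library, at 20993, against 29230 to 37535 in the other libraries, and 28 of 40 members were lowest in it, against 40.8% of all genes tested and 28.7% of those with a mean of at least 40 CPM. The defining leukocyte markers *Ptprc*, *Coro1a*, *Laptm5* and *Cd53* summed to 2711 to 3050 CPM (reads per 1000000 reads, after scaling of library sizes) and did not separate the groups. Markers of other cells were also present in every library. Fibroblast markers summed to 653 and 1042 CPM in AAV-CTRL 1 and 2 and to 354 and 549 CPM in AAV-mVEGF-C 1 and 2, with 5 of 6 genes lower in both AAV-mVEGF-C libraries. Erythroid markers summed to 119 and 148 CPM against 26.6 and 48.8 CPM, with 5 of 5 lower. Among leukocyte types, plasma cell markers summed to 409 and 416 CPM against 853 and 867 CPM, with 5 of 5 higher in both AAV-mVEGF-C libraries, and mast cell markers to 1871 and 1309 CPM against 1015 and 1104 CPM, with 4 of 4 lower. T cell markers summed to 213 and 192 CPM against 254 and 248 CPM, with 3 of 6 higher in both AAV-mVEGF-C libraries and 0 lower. NK cell markers summed to 67.8 and 68.8 CPM against 54.5 and 65.0 CPM, with 2 of 4 lower and 0 higher. The part of these cells in the differences between groups was not tested.

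Some promoters are shown here because the libraries differed most in the heat shock genes *Hspa1a* and *Hspa1b*, and because *Fos* was the most abundant member and *Nr4a3* had the largest fold change among the immediate early genes. *Hspe1* is shown beside them and does not meet these reasons. It is among the 2 of 8 heat shock genes with a run of 3 heat shock units, as described below. Each sequence is the 250 bases before the start site in RefSeq on GRCm38.p6, written 5′ to 3′ on the gene's strand. The windows are chr17:34972157-34972406 on the minus strand, chr17:34959239-34959488 on the minus strand, chr1:55087898-55088147 on the plus strand, chr12:85473640-85473889 on the plus strand and chr4:48045055-48045304 on the plus strand. Capitals mark matches to heat shock units in the first 3 genes (GAANNTTC or TTCNNGAA) and, in *Fos* and *Nr4a3*, to the short cyclic AMP response element TGACGT or, in *Fos*, to the TATA box TATAAA.
Hspa1a: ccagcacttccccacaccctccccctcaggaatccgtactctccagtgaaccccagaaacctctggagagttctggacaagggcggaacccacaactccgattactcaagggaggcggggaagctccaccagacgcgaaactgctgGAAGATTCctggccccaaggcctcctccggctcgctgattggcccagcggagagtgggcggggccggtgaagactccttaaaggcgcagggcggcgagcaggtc
Hspa1b: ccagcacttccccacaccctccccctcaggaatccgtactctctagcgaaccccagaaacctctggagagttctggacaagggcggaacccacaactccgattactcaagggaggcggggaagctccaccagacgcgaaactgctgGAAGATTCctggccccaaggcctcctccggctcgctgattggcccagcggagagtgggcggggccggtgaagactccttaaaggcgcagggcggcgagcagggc
Hspe1: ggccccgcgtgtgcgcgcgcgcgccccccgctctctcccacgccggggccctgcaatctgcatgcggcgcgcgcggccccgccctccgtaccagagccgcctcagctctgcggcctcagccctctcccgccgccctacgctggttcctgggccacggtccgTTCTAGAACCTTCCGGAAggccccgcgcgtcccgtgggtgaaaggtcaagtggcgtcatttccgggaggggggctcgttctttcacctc
Fos: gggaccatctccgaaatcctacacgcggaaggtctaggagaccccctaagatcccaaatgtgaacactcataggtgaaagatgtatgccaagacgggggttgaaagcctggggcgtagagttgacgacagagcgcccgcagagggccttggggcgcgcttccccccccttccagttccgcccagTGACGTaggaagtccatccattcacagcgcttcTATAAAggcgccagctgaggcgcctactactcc
Nr4a3: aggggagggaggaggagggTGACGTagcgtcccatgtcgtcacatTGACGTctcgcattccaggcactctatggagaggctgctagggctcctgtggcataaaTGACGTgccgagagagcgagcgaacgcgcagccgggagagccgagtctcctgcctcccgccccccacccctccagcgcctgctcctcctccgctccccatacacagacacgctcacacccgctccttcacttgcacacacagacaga

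The *Hspa1a* and *Hspa1b* windows were the same at 247 of 250 bases, and each held a pair of facing heat shock units starting at −104. Over windows of 300 bases (250 before to 50 after the start), 32 of the 40 genes had an entry. A pair of units occurred in 7 of 8 heat shock genes (*Bag3*, *Dnaja1*, *Hspa1a*, *Hspa1b*, *Hspb1*, *Hspe1* and *Hsph1*), in 3 of 24 immediate early genes and in 17.0% of 27025 genes overall. Runs of 3 units (GAA, TTC and GAA, or TTC, GAA and TTC, each 2 bases apart, which include the pair) occurred in 2 of 8 heat shock genes, *Hspe1* and *Hsph1*, in 0 of 24 immediate early genes and in 0.659% of all genes. TGACGT occurred in 8 of 24 immediate early genes (*Atf3*, *Btg2*, *Dusp1*, *Dusp5*, *Egr2*, *Fos*, *Nr4a3* and *Tnfaip3*), in 0 of 8 heat shock genes and in 8.37% of all genes, and its full form TGACGTCA in 2 of 24 and in 2.03% of all genes. TATAAA occurred in 6 of 24 immediate early genes and in 15.7% of all genes, and the AP-1 site (TGACTCA or TGAGTCA) in 1 of 24, 1 of 8 and 5.95%. The CArG box, which binds the serum response factor, occurred in 3 of 24 immediate early genes (*Dusp5*, *Egr2* and *Zfp36*) and in 1.81% of all genes. All letters were searched on both strands, the pair of heat shock units and TGACGT were added after the longer forms had been counted, and a match describes letters, not binding.

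On the scale that corrects for gene length (TPM, transcripts per 1000000), the members spanned a wide range. *Fos*, which pairs with JUN proteins in the AP-1 factor, stood first among the members and at rank 68 of all 55401 genes, at 1036 and 1275 TPM in AAV-CTRL 1 and 2 and 1051 and 1121 TPM in AAV-mVEGF-C 1 and 2. No other member overlapped its range. *Hspa8*, the constitutive cytosolic HSP70 chaperone, followed at a mean of 532 TPM, *Junb* at 494 TPM and *Nr4a1* at 419 TPM, and the ranges of neighbors in this order overlapped. *Dusp1*, *Zfp36*, *Btg2*, *Tnfaip3*, *Egr1*, *Jun* and *Nfkbia* had means from 337 down to 266 TPM, and the ranges of genes next to each other in this order overlapped. *Myc*, at 15.6 TPM, was the lowest immediate early gene, and *Hspb1*, a small heat shock protein, was the lowest member at 1.97 TPM.

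**Figure D1:**
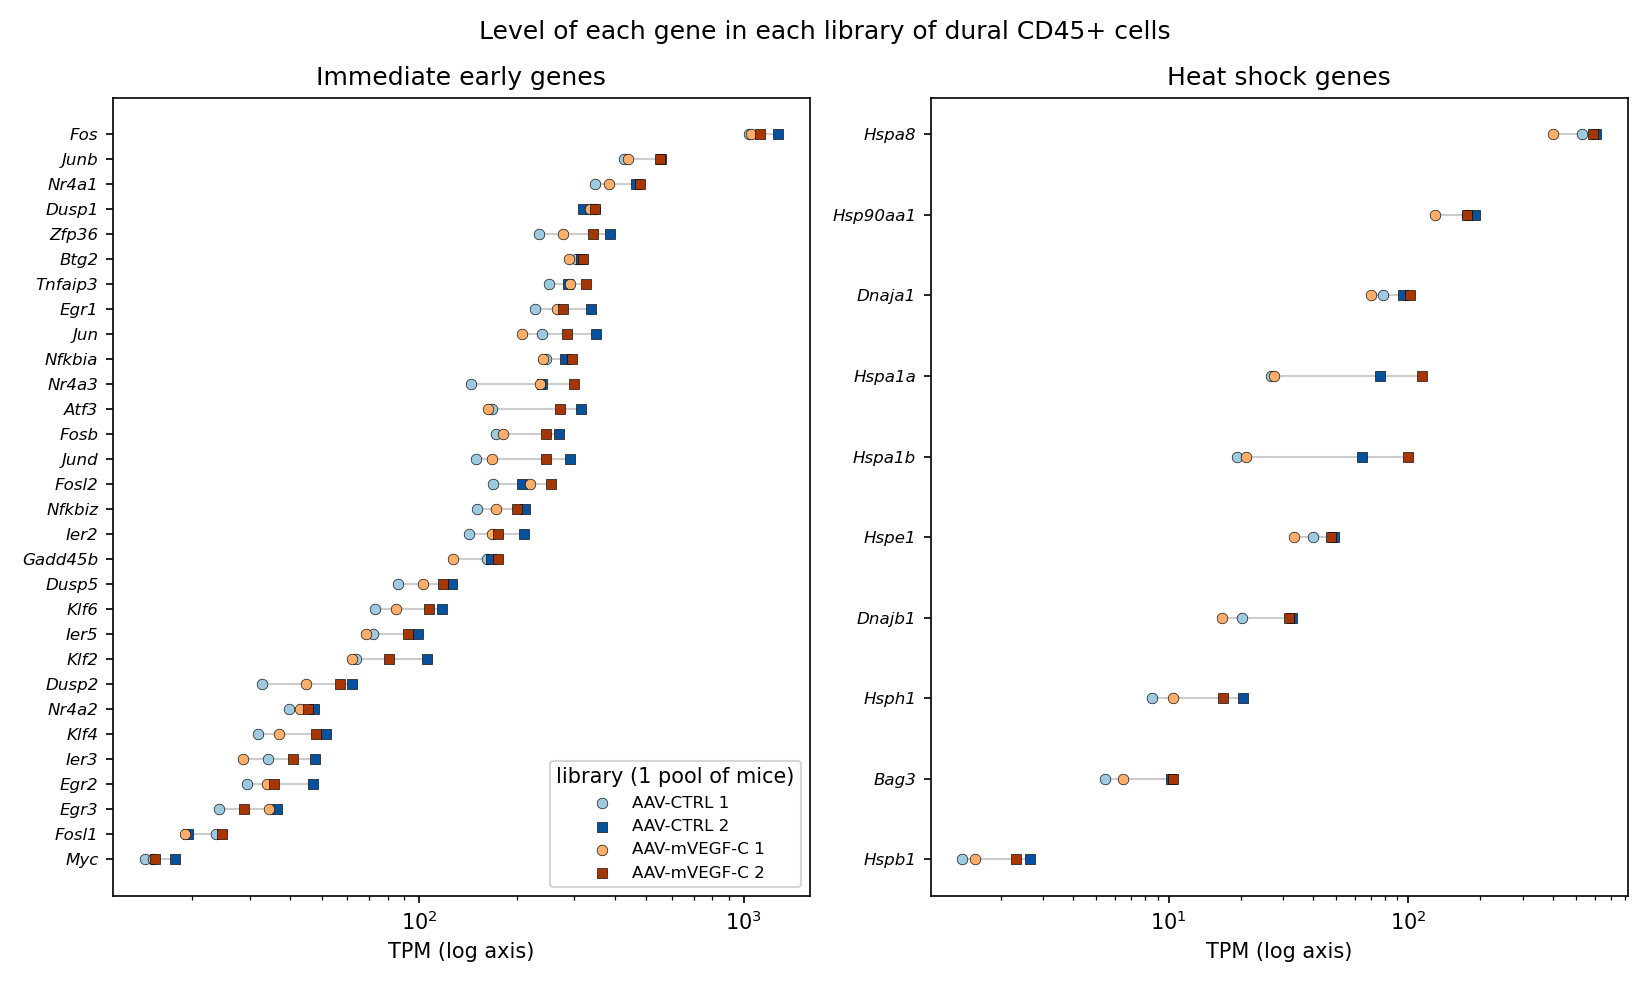
Level of each of the 40 genes in TPM (log axis), with 1 point for each library and a gray line from the lowest to the highest. Squares (experiment 2) lie to the right of circles (experiment 1) for most genes, *Fos* is the farthest right at a mean of 1121 TPM, and *Hspa1a* and *Hspa1b* have the widest spread.

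To see whether VEGF-C delivery went with a different level of these genes, AAV-mVEGF-C was compared with AAV-CTRL. All 40 members passed the filter on low counts. None passed an adjusted p of 0.05 in edgeR's quasi-likelihood test, as did none of the 19806 genes tested (0%). An unadjusted p under 0.05 was reached by 2 of 40 members, *Fosl2* and *Nr4a3*, against 523 of all genes (2.64%). Both were higher in AAV-mVEGF-C, as were 1.46% of all genes, and 0 members were lower, against 1.18%. DESeq2 and limma-voom also called 0 members, although DESeq2 called 77 genes (0.389%). The p-values measure the spread between pools, and with 2 pools a group the precision is low. The median log2 fold change was 0.15 over the immediate early genes and 0.10 over the heat shock genes, against 0.00 over all genes, and 35 of 40 members lay above 0. Over all genes 9983 of 19806 lay above 0, and of those with a mean of at least 40 CPM 2201 of 4611. The direction of the members depended on the scale and on single libraries. On log2(TPM + 1) values only 19 of 40 lay above 0, with medians of 0.01 and −0.03 against −0.08 over all genes, and without AAV-CTRL 1 the medians on the CPM scale were −0.05 and −0.09. They were 0.37 and 0.52 without AAV-CTRL 2, 0.31 and 0.39 without AAV-mVEGF-C 1, and 0.01 and −0.28 without AAV-mVEGF-C 2. Over all genes the median was 0.002 without AAV-CTRL 1, 0.13 without AAV-CTRL 2, −0.02 without AAV-mVEGF-C 1 and 0.04 without AAV-mVEGF-C 2. When AAV-CTRL 1, AAV-CTRL 2, AAV-mVEGF-C 1 or AAV-mVEGF-C 2 was left out, 0, 14, 4 and 0 members had an unadjusted p under 0.05 in edgeR, against 7.75%, 28.9%, 0.795% and 2.29% of all genes, and 0, 1, 0 and 0 passed the adjusted threshold, against 1.85%, 9.19%, 0.0097% and 0.284%. In these bulk samples, fewer cells of a type and less RNA per cell cannot be told apart.

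**Figure D2:**
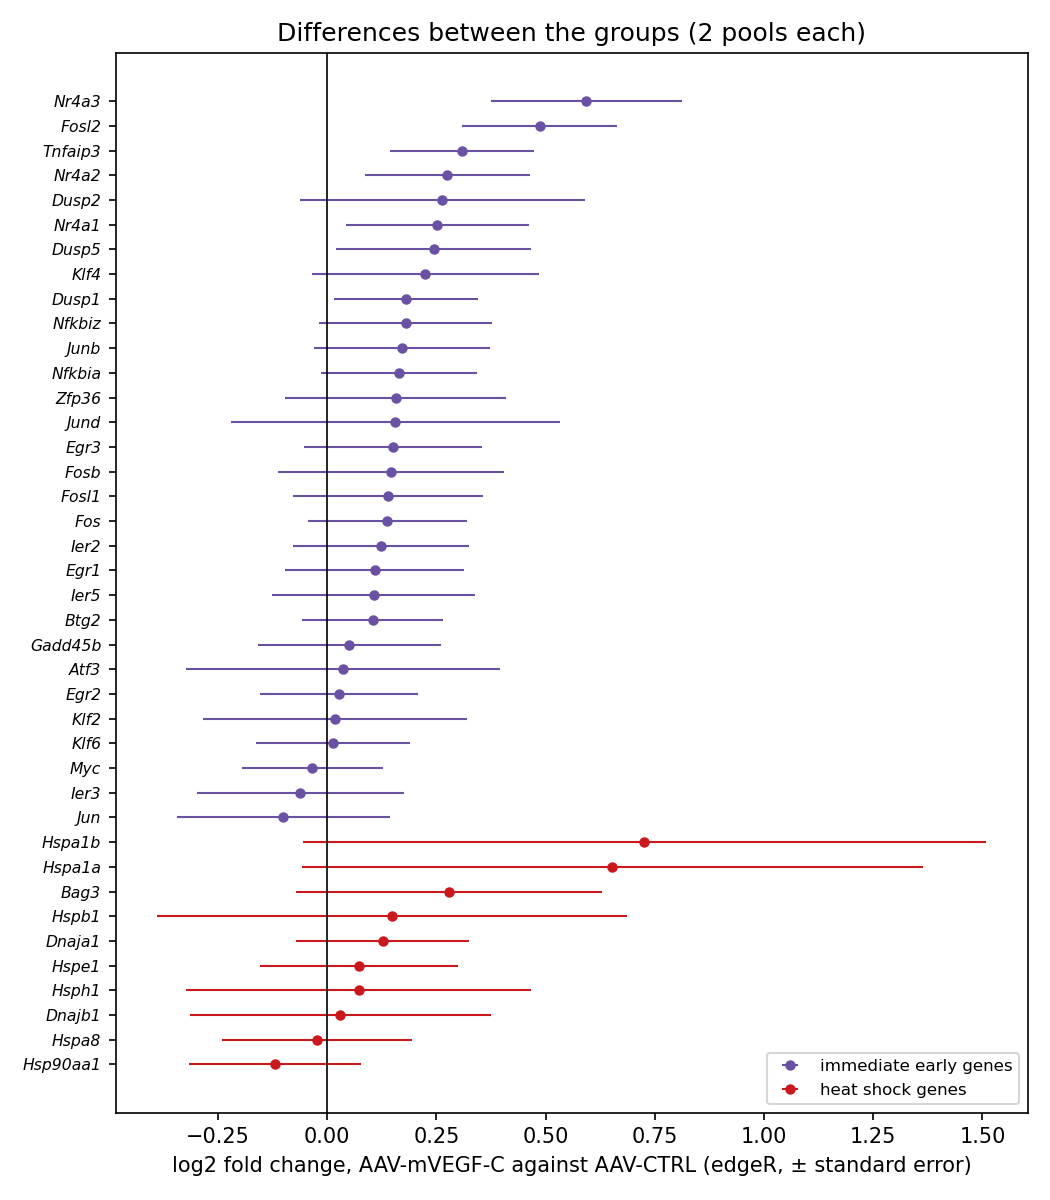
Log2 fold change of each gene in AAV-mVEGF-C against AAV-CTRL from edgeR, with bars of ± 1 standard error and 2 pools a group. Most points lie to the right of 0, the bars of *Nr4a3* and *Fosl2* lie farthest from 0, and the bars of *Hspa1a* and *Hspa1b* are the longest and cross it.

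Among the AP-1 genes, *Fosl2*, which encodes the FOS-related protein FRA-2, measured 1004 and 1152 CPM in AAV-CTRL 1 and 2 and 1389 and 1631 CPM in AAV-mVEGF-C 1 and 2. Both AAV-mVEGF-C libraries were above both controls (log2 fold change 0.49 ± 0.18, SE; unadjusted p = 0.033, edgeR quasi-likelihood test, Benjamini-Hochberg adjusted p = 0.999). Of the members, 5 had the 2 treated libraries above the 2 controls, against 16.8% of all genes, and 0 had them below, against 15.2%, and on the TPM scale the first count was 2, against 8.92%. *Fos* measured 1706 and 2130 CPM against 2039 and 2182 CPM, so the groups overlapped (0.14 ± 0.18). *Jun* measured 1130 and 1549 CPM against 1043 and 1456 CPM (−0.10 ± 0.24) and *Junb* 1307 and 1563 CPM against 1409 and 1825 CPM (0.17 ± 0.20). *Jund*, an AP-1 partner that many cells express at rest, measured 315 and 661 CPM against 436 and 651 CPM, so that its libraries within a group lay farther apart than the group means of 488 and 544 CPM. *Fosb*, *Fosl1* and *Atf3*, a stress-induced factor of the ATF family, also overlapped between the groups, with log2 fold changes of 0.15, 0.14 and 0.04.

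The NR4A genes encode nuclear receptors induced by antigen receptor and cytokine signals. *Nr4a3* measured 556 and 706 CPM in AAV-CTRL 1 and 2 and 815 and 1089 CPM in AAV-mVEGF-C 1 and 2, with both AAV-mVEGF-C libraries higher (0.59 ± 0.22, SE; unadjusted p = 0.035, edgeR quasi-likelihood test, Benjamini-Hochberg adjusted p = 0.999). Without AAV-CTRL 1 its fold change was 0.42, and without AAV-mVEGF-C 2 it was 0.38. On the TPM scale its groups no longer separated, since AAV-CTRL 2 and AAV-mVEGF-C 1 stood at 239 and 236 TPM. *Nr4a2* measured 115 and 150 CPM against 151 and 170 CPM, and the groups did not overlap, by a narrow margin (0.27 ± 0.19). Its fold change was 0.080 without AAV-CTRL 1 and 0.49 without AAV-CTRL 2. *Nr4a1*, a gene that also marks patrolling monocytes, measured 1137 and 1446 CPM against 1349 and 1728 CPM, which overlapped (0.25 ± 0.21). The zinc finger gene *Egr1* measured 1033 and 1430 CPM against 1295 and 1361 CPM, its controls lying on either side of the treated libraries (0.11 ± 0.21), and *Egr2* showed the same order at 102 and 133 CPM against 118 and 122 CPM. *Egr3* measured 118 and 158 CPM against 167 and 138 CPM and was the only member lower in AAV-mVEGF-C 2 than in AAV-mVEGF-C 1.

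Of the inhibitors that end the early response, *Tnfaip3*, which encodes the NF-κB inhibitor A20, measured 1459 CPM in each AAV-CTRL library and 1680 and 1935 CPM in AAV-mVEGF-C 1 and 2 (0.31 ± 0.17). *Dusp1*, a phosphatase of the MAP kinases, measured 807 and 707 CPM against 831 and 885 CPM (0.18 ± 0.17), with fold changes from 0.097 without AAV-CTRL 2 to 0.26 without AAV-CTRL 1. Both genes were thus higher in both AAV-mVEGF-C libraries, with unadjusted p of 0.110 and 0.316 in the edgeR quasi-likelihood test (Benjamini-Hochberg adjusted p = 0.999 for both). On the TPM scale *Fosl2* and *Tnfaip3* still separated the groups and *Dusp1* did not. *Dusp2*, a phosphatase found in activated leukocytes, measured 54.4 and 104 CPM against 80.7 and 109 CPM, with AAV-CTRL 1 the lowest (0.26 ± 0.33). Without AAV-CTRL 2, *Dusp2* was the only member to pass the adjusted threshold (0.82, edgeR quasi-likelihood test, Benjamini-Hochberg adjusted p = 0.026, with 1 control library assumed to vary like the treated ones), in a fit that called 9.19% of all genes. Without AAV-CTRL 1 its fold change was −0.15. *Zfp36*, whose product speeds the decay of cytokine RNAs, measured 852 and 1311 CPM against 1068 and 1343 CPM, and *Nfkbia*, *Nfkbiz* and *Dusp5* likewise overlapped, with log2 fold changes of 0.16, 0.16, 0.18 and 0.24 for the 4 genes in this order.

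The remaining immediate early genes overlapped between the groups. *Klf2* and *Klf4*, zinc finger factors that restrain inflammation in myeloid cells, measured 134 and 240 CPM against 164 and 215 CPM and 137 and 212 CPM against 175 and 233 CPM. *Klf6* stayed within 359 to 440 CPM, and *Myc*, which drives growth, within 42.0 to 46.7 CPM, the narrowest spread of any member with a highest to lowest ratio of 1.11. *Btg2*, which slows the cell cycle, measured 1134 and 1068 CPM against 1124 and 1242 CPM. *Ier2*, *Ier3*, *Ier5* and the DNA damage response gene *Gadd45b* had log2 fold changes of 0.12, −0.06, 0.11 and 0.05.

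None of the 10 heat shock genes separated the groups, and neither did 13481 of the 19806 genes tested. *Hspa1a* and *Hspa1b* encode the inducible HSP70 proteins, and their transcripts share 1350 windows of 100 bases, 47.1% of those in *Hspa1a* and 49.9% of those in *Hspa1b*, so the division of reads between them is uncertain. *Hspa1a* measured 138 and 349 CPM in AAV-CTRL 1 and 2 and 144 and 621 CPM in AAV-mVEGF-C 1 and 2, and *Hspa1b* measured 94.5 and 278 CPM against 104 and 512 CPM. In both genes the 2 libraries of experiment 1 were low and nearly equal and the 2 of experiment 2 were high. The fold changes between groups, 0.65 ± 0.71 and 0.73 ± 0.78, were the largest of any member and smaller than their own standard errors (unadjusted p = 0.393 and 0.388, edgeR quasi-likelihood test, Benjamini-Hochberg adjusted p = 0.999 for both). Without AAV-mVEGF-C 2 they were −0.74 and −0.83, and without AAV-CTRL 2 they were 1.49 and 1.72. The sum of both genes, which does not depend on how reads were divided between them, took 0.0224% and 0.0647% of reads in the controls and 0.0255% and 0.110% of reads in the treated libraries, in the order of the experiments.

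*Hspa8* measured 1557 and 1701 CPM against 1316 and 1890 CPM (−0.02 ± 0.22), and its count may hold reads of the small nucleolar RNAs *Snord14c*, *Snord14d* and *Snord14e*, which lie in its introns. *Hsp90aa1*, the inducible HSP90 chaperone, measured 476 and 450 CPM against 364 and 489 CPM (−0.12 ± 0.20). *Dnajb1*, the co-chaperone that delivers substrates to HSP70, measured 86.0 and 128 CPM against 74.9 and 144 CPM. *Hsph1*, a nucleotide exchange factor of HSP70, measured 29.4 and 63.9 CPM against 38.6 and 59.4 CPM, and *Bag3*, another HSP70 cofactor, measured 20.3 and 35.7 CPM against 25.7 and 42.2 CPM. In these 5 genes the AAV-mVEGF-C 2 library was the highest, *Hsph1* excepted, and in each of them AAV-mVEGF-C 2 exceeded AAV-mVEGF-C 1. *Dnaja1* and *Hspe1*, the mitochondrial chaperonin partner that shares a start region with *Hspd1* on the other strand, stayed within 158 to 214 CPM and 29.8 to 42.0 CPM, and *Hspb1* within 1.5 to 2.84 CPM.

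Because the libraries of a group lay so far apart in *Hspa1a* and *Hspa1b*, the libraries were also ordered by experiment number. This was done after the values were seen and is a description with no test. Whether same-numbered libraries of both groups were handled together is not settled, since the column names number them otherwise than the labels. Over all genes tested, the deviations of same-numbered libraries from their group means correlated at −0.134. In 30 of 40 members both libraries of experiment 2 were above both of experiment 1, against 18.8% of all genes, and in 0 of 40 were both below, against 15.4% of all genes. The 30 comprised 21 of 30 immediate early genes and 9 of 10 heat shock genes, *Hsp90aa1* being the exception. On the TPM scale the count was 35 of 40 (22.1% of all genes), and on read counts divided by the library total alone it was 31 of 40 (17.9%). Within the controls, 35 of 40 members were higher in AAV-CTRL 2 than in AAV-CTRL 1, against 55.3% of all genes, and within the treated group 39 of 40 were higher in AAV-mVEGF-C 2 than in AAV-mVEGF-C 1, against 50.1%.

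The median ratio of experiment 2 to experiment 1 over the immediate early genes was 1.30 in AAV-CTRL and 1.24 in AAV-mVEGF-C, and over the heat shock genes it was 1.62 and 1.5. *Hspa1a* had ratios of 2.53 and 4.31 and *Hspa1b* of 2.94 and 4.92. Among the 4611 genes with a mean of at least 40 CPM, only 3 (0.0651%) had both libraries of experiment 2 at least 2-fold above both of experiment 1, namely *Hspa1a*, *Hspa1b* and the pseudogene *Rpl10-ps1*, and these limits were also chosen after the values were seen. By comparison, *Fos* had ratios of 1.25 and 1.07, *Jund* of 2.09 and 1.49, *Atf3* of 1.89 and 1.60 and *Dnajb1* of 1.49 and 1.92. Macrophage markers were higher in both libraries of experiment 2 in 8 of 8 genes, summing to 1526 and 2168 CPM in AAV-CTRL 1 and 2 and to 1315 and 1843 CPM in AAV-mVEGF-C 1 and 2. B cell markers were higher in both libraries of experiment 2 in 4 of 5 genes, with sums of 221 and 514 CPM in the controls and 213 and 241 CPM in the treated libraries, and the fibroblast sums given above were higher in the second library of each group, with 1 of 6 genes higher in both libraries of experiment 2. Neutrophil markers summed to 17306 and 7928 CPM and to 11257 and 12288 CPM, and so did not follow the experiment number. The part of these cells in the difference between experiments was not tested.

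**Figure D3:**
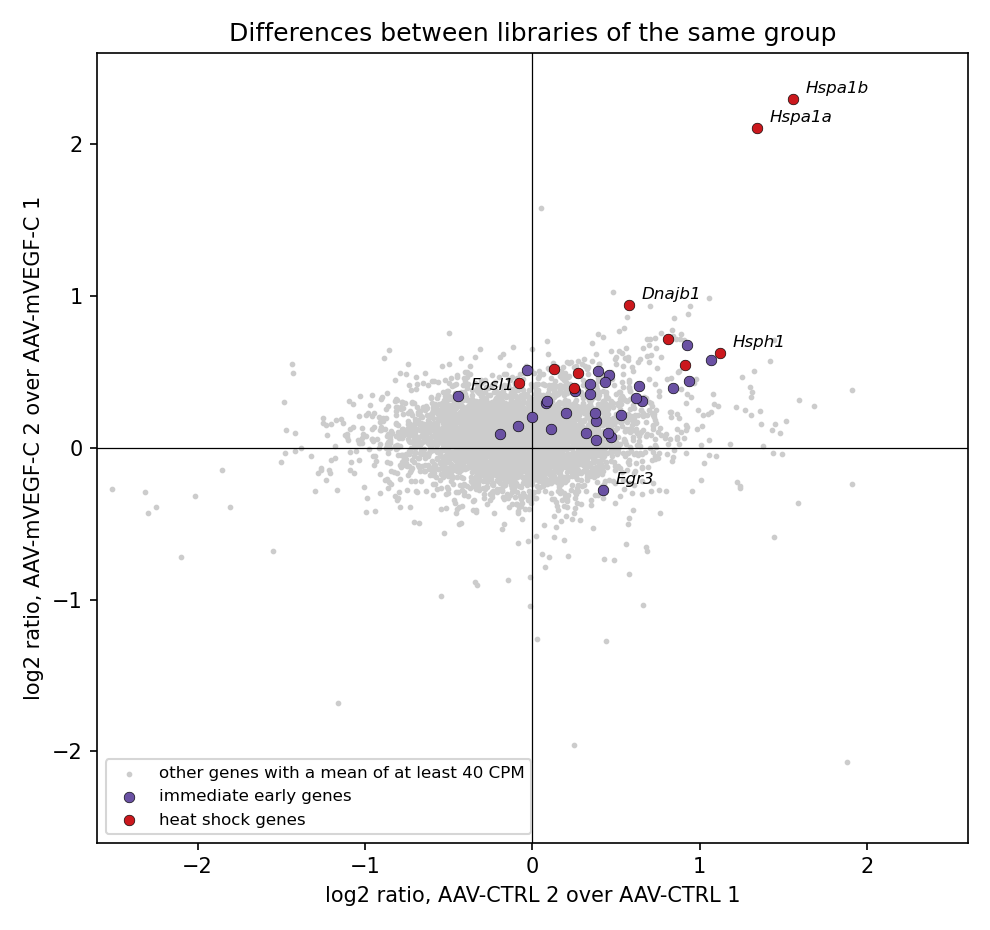
Log2 ratio of the second over the first AAV-mVEGF-C library (y axis) against the same ratio for the AAV-CTRL libraries (x axis), for the 40 genes in color and for 4572 other genes with a mean of at least 40 CPM in gray, of which 17 lie outside the axes. Within the axes *Hspa1a* and *Hspa1b* lie farthest to the upper right, *Rpl10-ps1* (3.88 and 1.71 on the x and y axes) and *Ighv1-26* (2.01 and 2.85) fall outside the axes on the same side, and most of the other members lie above and to the right of 0.

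Summed over the 30 immediate early genes, the share of reads was 1.62% and 2.17% in the controls against 2.00% and 2.29% in the treated libraries, in the order of the experiments, or 1.90% ± 0.389 against 2.15% ± 0.204 (SD, n = 2). The groups overlapped, and AAV-CTRL 1 was the lowest. As a share of TPM the same genes gave 0.544% and 0.726% against 0.579% and 0.690%, with group means of 0.635% and 0.635%. The heat shock genes took 0.250% and 0.334% of reads against 0.232% and 0.391%, and without *Hspa1a* and *Hspa1b* 0.227% and 0.269% against 0.207% and 0.281%. The 95% Wilson interval of the lowest immediate early share ran from 1.617% to 1.625%, which covers counting error and not the spread between pools.

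**Figure D4:**
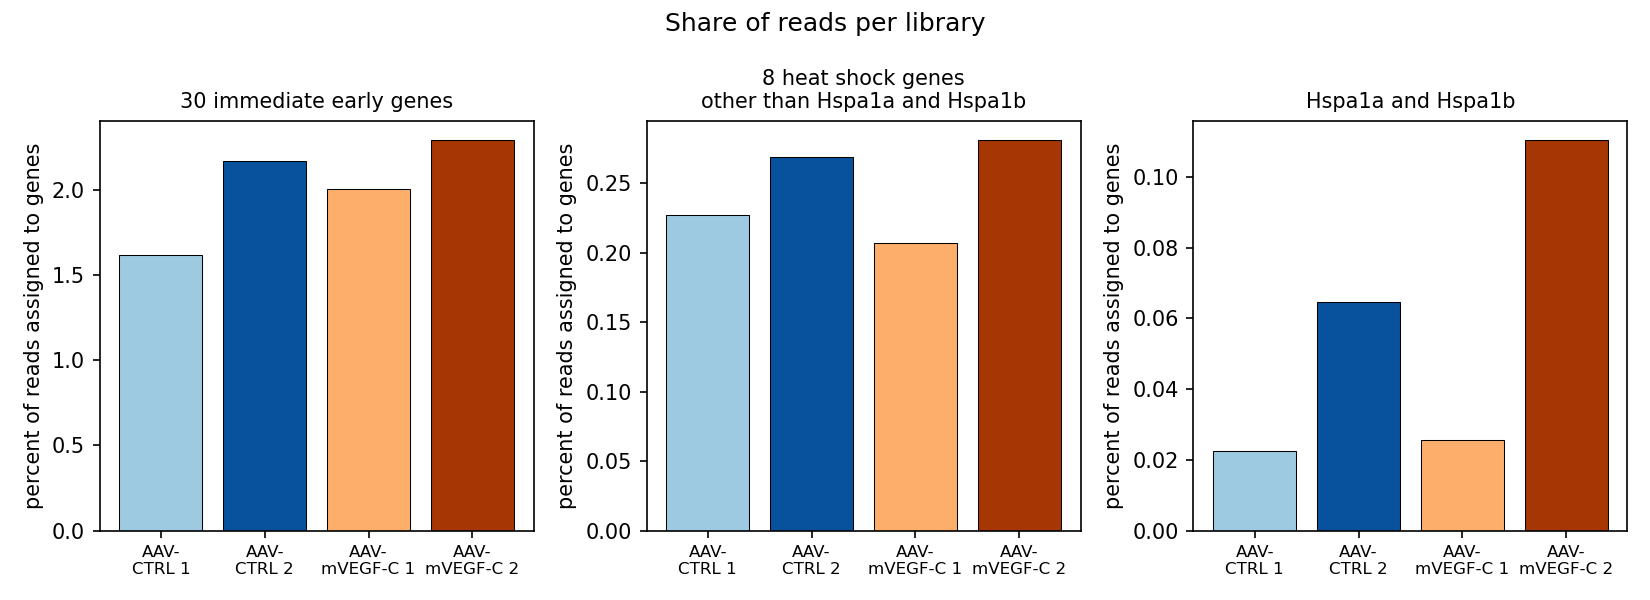
Percent of the reads assigned to genes (y axes from 0, with a scale of their own in each panel) taken in each library by the 30 immediate early genes, by the 8 heat shock genes other than *Hspa1a* and *Hspa1b*, and by these 2 genes. In each panel the second library of a group is higher than the first, and as a ratio by the most for *Hspa1a* and *Hspa1b*, from 0.0255% to 0.110% in AAV-mVEGF-C.

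By the distance between patterns over the 4 libraries (log2(CPM + 1) centered on each gene's mean), the members most like *Fos* were *Ier2* at 0.0919, *Nfkbiz* at 0.108 and *Egr1* at 0.108. The members most like *Hspa1a* were *Hspa1b* at 0.210, then *Bag3* at 1.08 and *Dnajb1* at 1.09. The distance is not scaled to the spread of each gene. A member that rises and falls with *Hspa1a*, but by less, therefore also lies far from it.

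Other genes of the same pathways were read from the same fit. Of 40 further early response genes, 0 passed the adjusted threshold in edgeR's quasi-likelihood test, 8 had an unadjusted p under 0.05 (6 higher and 2 lower), against 2.64% of all genes, and the median log2 fold change was 0.14. The smallest p-values among them belonged to the MAP kinase phosphatase gene *Dusp4*, at 20.5 and 19.1 CPM in AAV-CTRL against 33.4 and 39.7 CPM in AAV-mVEGF-C (0.88 ± 0.19), and to *Cebpb*, a factor of myeloid differentiation, at 224 and 233 CPM against 358 and 451 CPM (0.82 ± 0.18). The next was *Ccn1*, a matrix protein gene that fibroblasts express, at 32.4 and 25.3 CPM against 14.8 and 19.7 CPM (−0.74 ± 0.24), beside the lower fibroblast markers given above. In these 3 genes, picked for their small p-values, the groups did not overlap. Across the 40 further early response genes, the treated pair lay wholly higher than the control pair in 12 and wholly lower in 4. The matching shares of all genes tested were 16.8% and 15.2%. For *Dusp4*, *Cebpb* and *Ccn1* the unadjusted p was 0.0030, 0.0037 and 0.020 (edgeR quasi-likelihood test, Benjamini-Hochberg adjusted p = 0.999 for each). Of 40 further chaperone genes, 0 had an adjusted or unadjusted p under 0.05, and 36 lay below 0 with a median of −0.18. Both AAV-mVEGF-C libraries were below both controls in 13 of them and above in 0, against 15.2% and 16.8% of all genes. Over all genes 9823 of 19806 lay below 0, and of those with a mean of at least 40 CPM 2410 of 4611. In these chaperones the ratio of AAV-mVEGF-C to AAV-CTRL had a median of 0.795 in experiment 1 and 1.001 in experiment 2, and 27 of 40 were lowest in AAV-mVEGF-C 1, against 4563 of 19806 genes overall and 1446 of 4611 with a mean of at least 40 CPM. The 3 with the smallest p were *Cacybp*, *Cct6a* and *Cct5*, the last 2 being subunits of a chaperonin that folds actin and tubulin, with log2 fold changes of −0.36, −0.43 and −0.32. Of 17 upstream factors, which act on these genes, 0 had an unadjusted p under 0.05, and *Crem*, *Rela* and *Mapk8* came first with 0.23, 0.26 and 0.38. *Hsf1* itself measured 23.9 and 37.1 CPM against 33.6 and 33.9 CPM.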

How the data were processed

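RNA of CD45+ dural cells was measured in 4 libraries, 2 per group. The authors deposited estimated counts per gene, not normalized, of which 8.18% were not whole (among the members, in 7 heat shock genes), and TPM values for the same genes. The submitters' processing notes name mm10, DRAGEN, FastQC, Trimmomatic and Picard, and the role of each is not given in the sources used here. The kit keeps strand, but whether counting used it is not given. Of the 37 members matched in GENCODE M21 on GRCm38 (all but *Junb*, *Myc* and *Ier2*), 4 overlap another gene on the same strand and 10 on the other strand, among them *Hspa1a* with *Gm20481* and *Jun* with *Junos*.

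Counts were rounded and tested on all genes with edgeR 4.0.16 in R 4.3.3 (TMM scaling, filterByExpr and glmQLFit at their defaults, group as the only term, Benjamini-Hochberg adjusted p under 0.05). The common dispersion was 0.173. The standard error is the size of the log2 fold change over the square root of F. CPM values use TMM-scaled library sizes. Intervals are Wilson intervals and cover counting error only. Tests were tried on simulated data.

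Alternatives were DESeq2 1.42.0, limma-voom (limma 3.58.1), other scalings and filters, log2(TPM + 1) and log2(TPM + 0.1), a replicate block and each library left out. A crossed block was added after the data were seen. The text names all members and, from each further list, the 3 genes with the smallest p. *Hsf1* falls outside this rule and was chosen after its values were seen, as were *Rpl10-ps1* and *Ighv1-26*. The members and lists were chosen with earlier results of these data known.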

Additional observations from a re-analysis of the deposited data

How the results depend on the processing

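No member was called past the adjusted threshold in any of the 12 alternatives that kept all libraries, and 426 of 480 fold changes kept their sign. Over all genes the count of 0 became 77 with DESeq2 and 268 with no filter on low counts, and 2 to 2058 when a library was left out. For the members that count was 0 to 1 with a library left out, the 1 being *Dusp2* without AAV-CTRL 2. The count of members with an unadjusted p under 0.05 was 0 on all 3 TPM settings and 0 to 14 with a library left out: 0 without AAV-CTRL 1, 14 without AAV-CTRL 2, 4 without AAV-mVEGF-C 1 and 0 without AAV-mVEGF-C 2. The cause was not tested. The medians and shares of reads of both gene groups moved by less than the spread between libraries. With 2 libraries a group, leaving 1 out can hardly move a value by more than that spread, so no stability follows from this. Both medians turned below 0 without AAV-CTRL 1, and the heat shock median did so without AAV-mVEGF-C 2 and on the TPM scale.

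A replicate block by experiment number called 11 genes, 0 of them members, and *Dnajb1* turned to −0.016. The pairing is not settled, since the column names number the libraries otherwise than the labels, and deviations of same-numbered libraries correlated at −0.134. Crossing the pairs gave 54 genes, 0 of them members.

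With log2(TPM + 1) the signs turned for *Atf3* −0.12, *Btg2* −0.027, *Dnaja1* −0.034, *Dnajb1* −0.15, *Egr1* −0.025, *Egr2* −0.093, *Fos* −0.083, *Fosb* −0.028, *Gadd45b* −0.14, *Hspb1* −0.018, *Hspe1* −0.15, *Hsph1* −0.00063, *Ier2* −0.019, *Ier5* −0.086, *Jund* −0.042 and *Klf2* −0.21, and the same values came from keeping any gene with a value above 0. With log2(TPM + 0.1) the same genes except *Hsph1* turned, with values that differed after rounding for *Dnajb1* −0.16, *Egr2* −0.094, *Hspb1* −0.013 and *Ier5* −0.087. Other turns were *Dnajb1* −0.019 in limma-voom, *Dnajb1* −0.016 with crossed pairs, *Klf2* −0.0060 and *Klf6* −0.0060 without the filter, and *Hspa8* 0.0087 and *Myc* 0.0014 with upper quartile scaling. With a library left out, log2 fold changes that turned ranged as follows: *Atf3* −0.37 to 0.58, *Bag3* −0.11 to 0.75, *Dnaja1* −0.076 to 0.32, *Dnajb1* −0.51 to 0.44, *Dusp2* −0.15 to 0.82, *Dusp5* −0.013 to 0.54, *Egr1* −0.12 to 0.37, *Egr2* −0.17 to 0.24, *Egr3* −0.063 to 0.38, *Fos* −0.030 to 0.32, *Fosb* −0.16 to 0.52, *Fosl1* −0.055 to 0.36, *Gadd45b* −0.22 to 0.29, *Hsp90aa1* −0.34 to 0.087, *Hspa1a* −0.74 to 1.49, *Hspa1b* −0.83 to 1.72, *Hspa8* −0.30 to 0.22, *Hspb1* −0.25 to 0.68, *Hspe1* −0.19 to 0.31, *Hsph1* −0.40 to 0.75, *Ier2* −0.10 to 0.38, *Ier3* −0.33 to 0.18, *Ier5* −0.12 to 0.35, *Jun* −0.35 to 0.16, *Junb* −0.019 to 0.36, *Jund* −0.30 to 0.80, *Klf2* −0.36 to 0.51, *Klf4* −0.074 to 0.59, *Klf6* −0.13 to 0.16, *Myc* −0.10 to 0.037, *Nfkbiz* −0.010 to 0.39 and *Zfp36* −0.14 to 0.51.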
